A study of Arabidopsis thaliana with 4 samples.

Results

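The levels of 7 transcripts proposed as substrates of the exoribonuclease XRN4 were followed here in Arabidopsis thaliana inflorescences, through 7 of the 22810 probe sets of the Affymetrix ATH1 array. They are AT4G32020 (253455_at), AT1G68490 (260268_at), AT2G25250 (263613_at), AT1G30200 (256193_at), AT5G11090 (245905_at), AT1G04660 (264606_at) and the probe set 262135_at. Total RNA from mixed-stage inflorescences of xrn4-5 plants (2 arrays, numbered 1 and 2) was set against that of wild-type Col-0 plants (2 arrays, numbered 1 and 2). The mutant is in the Col-0 ecotype, and plants of both genotypes grew at 21 °C in long days (16 h light, 8 h dark). The labels name 1 mutant allele, no age and no agent, and do not state if arrays of the same genotype stand for separate batches of plants, so any p-value measures only how far these arrays lie apart, which can be technical. The 7 probe sets were picked with the xrn4-5 against Col-0 contrast of these same 4 arrays in view, by name and with no numeric threshold. Their differences between the genotypes are therefore descriptions. Counts of calls among the 7 are given below only to place them beside all probe sets, and are not read as tests.

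XRN4 is a cytoplasmic exoribonuclease that degrades RNA from its 5′ end once the cap has been removed, the plant counterpart of yeast XRN1. Decapping activators such as the LSM ring deliver messenger RNAs to this route, and XRN4 also clears the downstream fragments that microRNA-guided cleavage leaves. Transcripts that depend on this route are known to accumulate in xrn4 mutants, in part as uncapped or truncated RNA. The signal of a probe set is a level at 1 time and does not separate intact RNA from fragments, so the word candidate in the name of the group could not be checked with these arrays.

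Of the 7 probe sets, 6 have 1 gene in the platform annotation. Among them, AT1G30200 encodes a protein of the F-box family, whose members select proteins for ubiquitination. AT1G04660 encodes a glycine-rich protein and AT5G11090 a serine-rich protein. AT4G32020, AT2G25250 and AT1G68490 encode proteins with no assigned function. The platform annotation used here does not list 262135_at. It was chosen as a probe set of AT1G78080, and it is called by its probe set name because that pairing could not be checked.

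All 7 passed the filter on dim probe sets, which kept 13647 of the 22746 probe sets that are not controls. In all 7, neither xrn4-5 array overlapped the Col-0 arrays, and both were higher. Among all tested probe sets 22.8% showed this, and since the members were picked on this contrast nothing is read from the comparison. In bulk tissue a higher level in each cell and a larger share of cells that hold the transcript cannot be told apart.

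The widest gap belonged to 262135_at. Its signal was 5020 and 3694 in xrn4-5 plants, against 867 and 965 in Col-0 plants. The lower xrn4-5 array still stood 3.83 times above the higher Col-0 array. The difference of the means of log2(signal + 32), the scale of every log2 difference below, was 2.20, or 4.58-fold. This was the fourth highest of all tested probe sets. The xrn4-5 arrays also differed most from each other here, with array 1 at 1.36 times array 2, and the mean was 4357 ± 937 (SD, n = 2) in xrn4-5 plants against 916 ± 69.6 (SD, n = 2) in Col-0.

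The genes with no assigned function followed. AT1G68490 gave 3790 and 3273 in xrn4-5 plants, against 1102 and 1489 in Col-0 plants, a log2 difference of 1.44. Its Col-0 arrays were the least alike of the group, array 2 lying 1.35 times above array 1, yet the lower xrn4-5 array was 2.20 times the higher Col-0 array. AT2G25250 gave 1030 and 1003 in xrn4-5 plants, against 393 and 377 in Col-0 plants, a log2 difference of 1.33.

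In AT2G25250 the 2 arrays of each genotype lay close together, and the lower xrn4-5 array was 2.55 times the higher Col-0 array. AT4G32020 gave 4169 and 3809 in xrn4-5 plants, against 1609 and 1816 in Col-0 plants, a log2 difference of 1.21. Here the lower xrn4-5 array was 2.1 times the higher Col-0 array.

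The transcripts for the glycine-rich, F-box and serine-rich proteins had the smaller differences. AT1G04660 gave 379.5 and 440 in xrn4-5 plants, against 172 and 177 in Col-0 plants, a log2 difference of 1.09. It was the one member whose xrn4-5 array 2 was brighter than xrn4-5 array 1, and the added constant of 32 lowered its fold. The ratio of its mean signals was 2.35, against 2.13-fold on the log2(signal + 32) scale. AT1G30200 gave 844 and 811.5 in xrn4-5 plants, against 404 and 398.5 in Col-0 plants, a log2 difference of 0.99. Its arrays lay close together within each genotype, with a SD of 23.0 in xrn4-5 and 4.10 in Col-0 (n = 2 each).

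AT5G11090 gave 1779 and 1569 in xrn4-5 plants, against 898.5 and 786 in Col-0 plants, a log2 difference of 0.96. It was the only member in which the lower xrn4-5 array was less than 2 times the higher Col-0 array, at 1.75 times. Both of its genotypes were dimmer in array 2 than in array 1, as they were by less in AT2G25250 and AT1G30200.

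**Figure D1:**
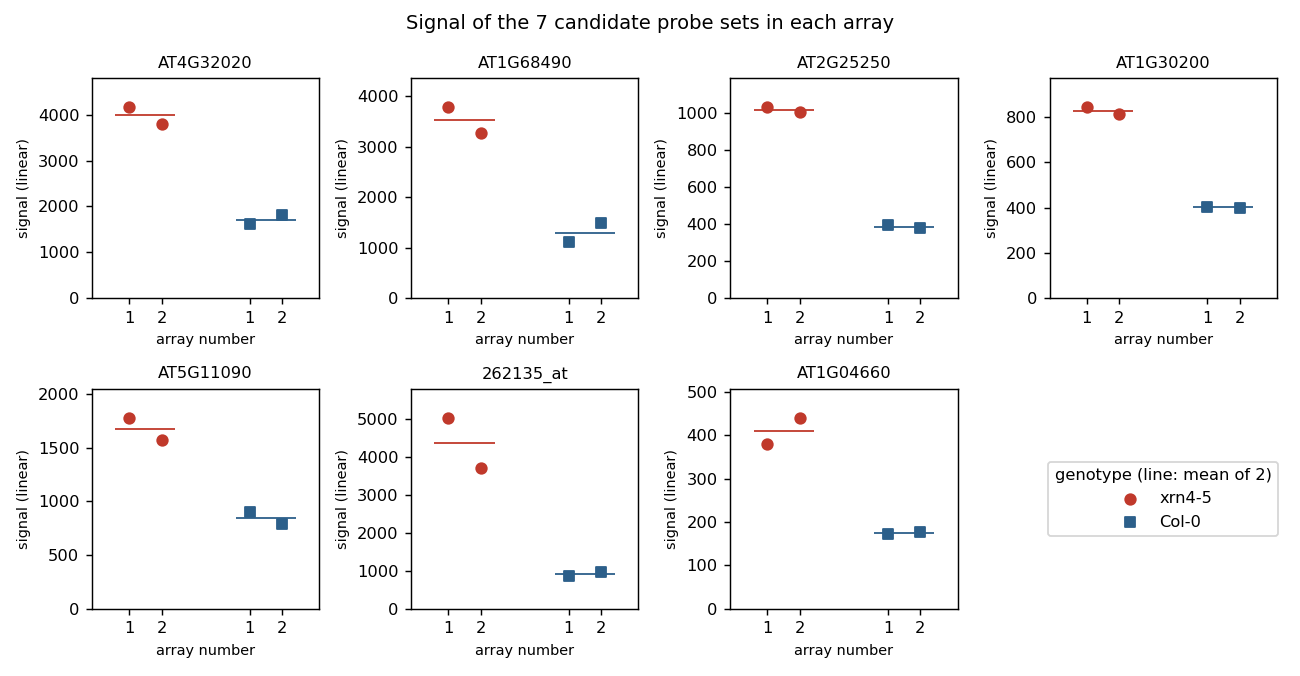
Signal on a linear scale (vertical axis, from 0) of the 7 probe sets in the 2 xrn4-5 arrays (circles) and the 2 Col-0 arrays (squares), with a line at the mean of each genotype. In every panel both xrn4-5 arrays lie above both Col-0 arrays, with the widest gap in 262135_at (5020 and 3694 against 867 and 965).

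Every xrn4-5 array was at least 2 times every Col-0 array in 6 of the 7, a criterion met by 12 of 13647 tested probe sets (0.0879%). The median log2 difference of the 7 was 1.21, beside 0.01 over all tested probe sets, and all 7 stood among the 40 highest. After Benjamini-Hochberg adjustment over all tested probe sets, limma called 1 probe set higher at an adjusted p under 0.05 (0.00733%), and 0 of the 7 were that probe set. That fit left the array number out, and the different counts with the number as a block are given in the last paragraph. At an unadjusted limma p under 0.05, 7 of the 7 were higher, beside 5.38% of all tested. A test with no shared variance, each probe set standing alone and adjusted in the same way, called 0 of the 7. It called 0 probe sets in either direction over all tested, so nothing is read from its counts of 0 here or below. The members were picked on this contrast, so these counts place them among the other probe sets and test nothing.

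Same-numbered arrays were also compared pair by pair. In pair 1, the log2 differences of the 7 had a median of 1.32 and a range of 0.96 to 2.49. In pair 2 the median was 1.12 and the range 0.97 to 1.90. The pairs differed most in AT1G68490 (1.75 in pair 1 and 1.12 in pair 2) and in 262135_at (2.49 in pair 1 and 1.90 in pair 2).

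AT4G32020 had 1.36 in pair 1 and 1.06 in pair 2. AT2G25250 had 1.32 and 1.34, AT1G30200 had 1.01 and 0.97, and AT5G11090 had 0.96 and 0.97. In these last 3 the pairs were nearly the same. AT1G04660 had the larger difference in pair 2, with 1.17 against 1.01 in pair 1. Of the 7, 4 had the larger difference in pair 1, beside 47.8% of all tested probe sets.

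**Figure D2:**
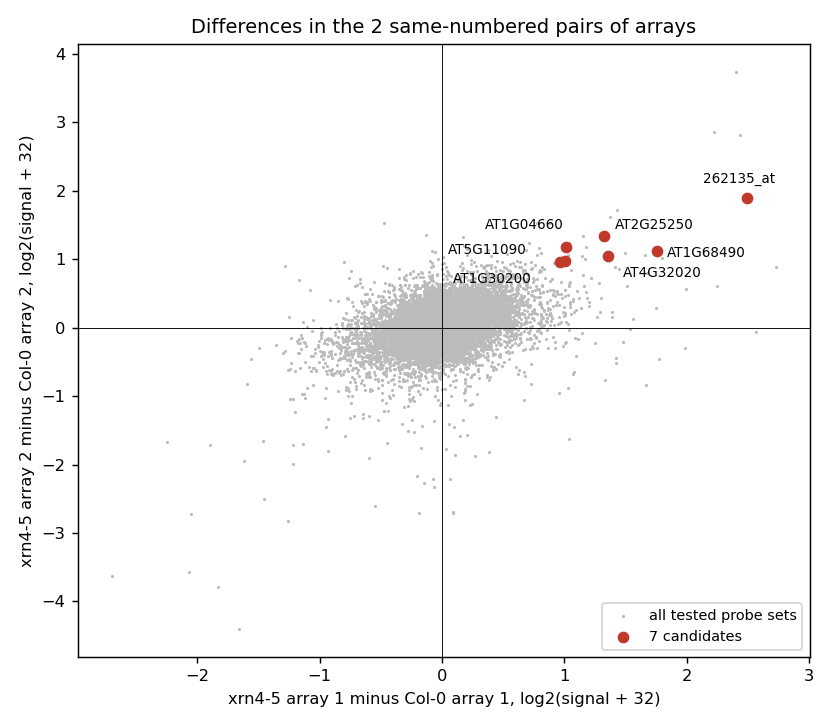
Log2 difference of xrn4-5 over Col-0 in the pair of arrays numbered 1 (horizontal axis) and numbered 2 (vertical axis), for all 13647 tested probe sets (grey) and the 7 candidates (red). The candidates lie between 0.96 and 2.49 in pair 1 and between 0.97 and 1.90 in pair 2, at the upper right edge of the cloud.

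The authors' deposited table gives each of these pairs a ratio on the log2 scale, xrn4-5 over Col-0, rounded to 1 decimal. In the authors' deposited table the ratios of 262135_at were 2.5 and 1.8, those of AT1G68490 1.6 and 1.2, and those of AT4G32020 1.3 and 1.1. These stood near the differences of the signals, the widest distance being 0.15 in AT1G68490. For AT2G25250 the authors' deposited table gave 1.6 and 1.2, where the signals gave nearly equal pairs.

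For AT1G04660 the authors' deposited table gave 1.2 and 0.6, so the order of its pairs was opposite to that of the signals. AT5G11090 had 1.0 and 1.1 there, and AT1G30200 had 0.9 and 0.9. Of the 7, 5 had a ratio of at least 1 in both pairs of the authors' deposited table, as did 0.919% of the 22746 probe sets. The same 5 also had the authors' change p-value under 0.01 both times in the authors' deposited table, beside 0.114% of all. AT1G30200 fell short of a ratio of 1 in both pairs, with the authors' change p-value at 2e-05 each time. AT1G04660 fell short in pair 2 only, and its change p-values from the authors were 0.000307 in pair 1 and 0.023 in pair 2. Each change p-value compares 1 array with 1 array. Values of 2e-05 or lower were given to 327 probe sets in pair 1 and 128 in pair 2, where 2e-05 was the smallest.

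**Figure D3:**
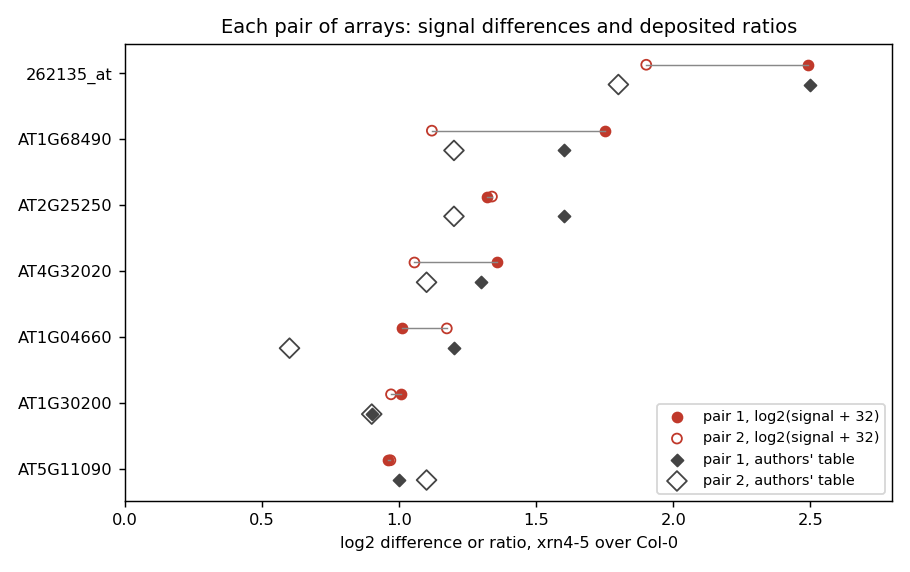
For each candidate, the log2(signal + 32) difference in pair 1 (filled circle) and pair 2 (open circle), and below it the log2 ratio in the authors' deposited table for pair 1 (filled diamond) and pair 2 (open diamond). The horizontal axis is xrn4-5 over Col-0 on the log2 scale, and the 2 sources differ most in pair 2 of AT1G04660 (1.17 and 0.6).

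In each of the 7, which were picked on the genotype contrast, the arrays within a genotype differed by less than the genotypes did. The size of the log2 gap between the 2 xrn4-5 arrays had a median of 0.18 over the 7, beside 0.15 over all tested probe sets. Between the 2 Col-0 arrays the medians were 0.15 and 0.16. The largest gaps were 0.44 between the xrn4-5 arrays, in 262135_at, and 0.42 between the Col-0 arrays, in AT1G68490. Both are well below the difference between the genotypes in the same gene. In a model of genotype and array number, limma called 322 probe sets different between arrays 2 and 1 at an adjusted p under 0.05 (2.36%), and 0 of the 7. At an unadjusted p under 0.05 the counts were 0 of the 7 and 13.8% of all tested. A choice on a clear genotype difference favours probe sets with a small spread, so nothing is read from these counts.

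The mean profile of the 7 over the 4 arrays was used to find the genes most like them. Likeness was the root mean square distance over the 4 arrays between log2(signal + 32) profiles, each centred on its own mean. By it AT2G25250 (0.05) and AT4G32020 (0.06) were the closest of all tested probe sets to the mean profile, and 262135_at, with its larger difference, was the farthest member at 0.45. The 7 make up the mean profile, so the closeness of members to it is partly built in. The 6 nearest named genes outside the group were AT1G20070 (0.16), EXPA15 (0.20), AT5G49280 (0.24), AT2G38090 (0.24), AT1G26920 (0.24) and AT5G55560 (0.25). All 6 were higher in both xrn4-5 arrays than in both Col-0 arrays, which a search for this profile selects.

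EXPA15, which encodes an expansin that loosens cell walls, gave 2539 and 2428 in xrn4-5 plants, against 1335 and 1245 in Col-0. AT1G20070 gave 663 and 535 in xrn4-5 plants, against 282 and 241 in Col-0. Both were dimmer in array 2 than in array 1 in each genotype, as AT5G11090, AT2G25250 and AT1G30200 were. AT5G49280 gave 593 and 719 in xrn4-5 plants, against 272 and 359 in Col-0, so it was brighter in array 2 in each genotype. AT2G38090 gave 916 and 1092 in xrn4-5 plants, against 522 and 504 in Col-0. AT1G26920 (1271 and 1062 in xrn4-5 plants, against 601 and 668.5 in Col-0) and AT5G55560 (241 and 275 in xrn4-5 plants, against 123 and 134 in Col-0) were the last of the 6. The filter on dim probe sets used the mean over all 4 arrays, and AT5G55560 passed it through its xrn4-5 values. Its Col-0 signals lay below those of AGL66 (179 and 141), a late pollen marker that the filter left out.

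**Figure D4:**
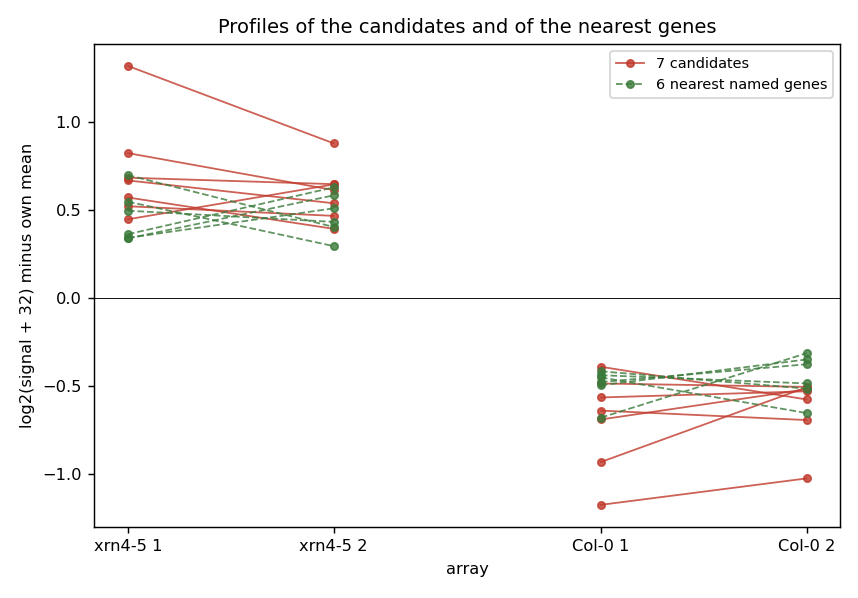
Log2(signal + 32) minus the gene's own mean over the 4 arrays (vertical axis) in each array (horizontal axis), for the 7 candidates (solid) and the 6 nearest named genes (dashed). Every line is above 0 in both xrn4-5 arrays and below 0 in both Col-0 arrays, and the outermost line is 262135_at.

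Genes of the decay pathway itself did not enter the choice of the 7. XRN4 has no named probe set in the annotation used here, and the same is true of the ethylene-pathway genes EBF1 and EBF2, known from other work on xrn4 mutants for raised transcript levels. Of 38 decay factors listed, 18 were tested. In limma 0 of the 18 passed in either direction at an adjusted p under 0.05 (background 0.00733% higher and 0% lower). The test with no shared variance called 0, as it did over all tested probe sets. At an unadjusted limma p under 0.05 there were 4 of 18, beside 9.33% of all tested probe sets (5.38% higher and 3.95% lower). Neither genotype overlapped the other in 9 of the 18, with 7 higher and 2 lower in xrn4-5, beside 22.8% and 18.6% of all tested. The count at an unadjusted p was 1 without array 1 of xrn4-5, 1 without its array 2, 3 without array 1 of Col-0 and 0 without its array 2. The median log2 difference was 0.07, beside 0.01 over all.

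Among activators of decapping, LSM1B, of the LSM ring, averaged 502 ± 60.7 (SD, n = 2) in xrn4-5 plants against 355 ± 8.56 (SD, n = 2) in Col-0. Its log2 difference of 0.46 had a limma adjusted p of 0.456. LSM1A, of the same ring, had a log2 difference of 0.06. AT1G79090, the decapping activator PAT1, gave 0.44 with a limma adjusted p of 0.448, and the helicase AT3G61240 gave 0.34 with a limma adjusted p of 0.511.

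Among factors of other decay routes, AT1G02080, the scaffold NOT1 of the deadenylase complex, gave a log2 difference of 0.31. UPF3, of nonsense-mediated decay, gave 0.32. The exosome subunits RRP41 and AT5G38890 (CSL4) had log2 differences of -0.36 and -0.30, both Col-0 arrays lying above both xrn4-5 arrays.

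Of 40 microRNA targets listed, 4 were tested, and limma called 0 of them at an adjusted p under 0.05, the test with no shared variance 0, and limma 1 at an unadjusted p under 0.05, beside 9.33% of all tested. That count was 2 without array 1 of Col-0 and 0 without any other single array. The blue copper protein gene ARPN had a log2 difference of -0.67 (limma adjusted p = 0.491). CCS, the copper chaperone of superoxide dismutase, gave -0.46, APS4, an ATP sulfurylase, gave 0.28, and PHV, a leaf polarity factor, gave 0.25. The median of the 4 was -0.11, beside 0.01 over all tested probe sets. Single arrays moved all 4: leaving out 1 array at a time, ARPN ranged from -0.99 to -0.34, CCS from -0.79 to -0.13, APS4 from 0.13 to 0.43 and PHV from 0.073 to 0.42. The lowest size was reached without array 2 of Col-0 in ARPN and CCS, and without array 2 of xrn4-5 in APS4 and PHV.

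A list of ERF and DREB transcription factors was set beside 262135_at, because AT1G78080 bears the symbol RAP2.4, of the AP2/ERF family, in the reference table. Of its 15 entries 3 were tested, out of 8 with a named probe set. AT1G78080 itself is among the entries and has no named probe set. Limma called 0 of the 3, and the test with no shared variance 0. At an unadjusted limma p under 0.05 there were 0, beside 9.33% of all tested. With the array number as a block that count was 2, and 0 were called after adjustment. AT2G44940 gave 0.53, AT1G64380 gave 0.52 and AT4G39780 gave 0.17, and their median of 0.52 stood beside 0.01 over all. The estimates moved when 1 array was left out. AT1G64380 was 0.024 without array 1 of Col-0 and 1.02 without its array 2. AT2G44940 was 0.14 without array 1 of xrn4-5 and 0.93 without its array 2, and AT4G39780 was -0.020 without array 2 of xrn4-5.

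**Figure D5:**
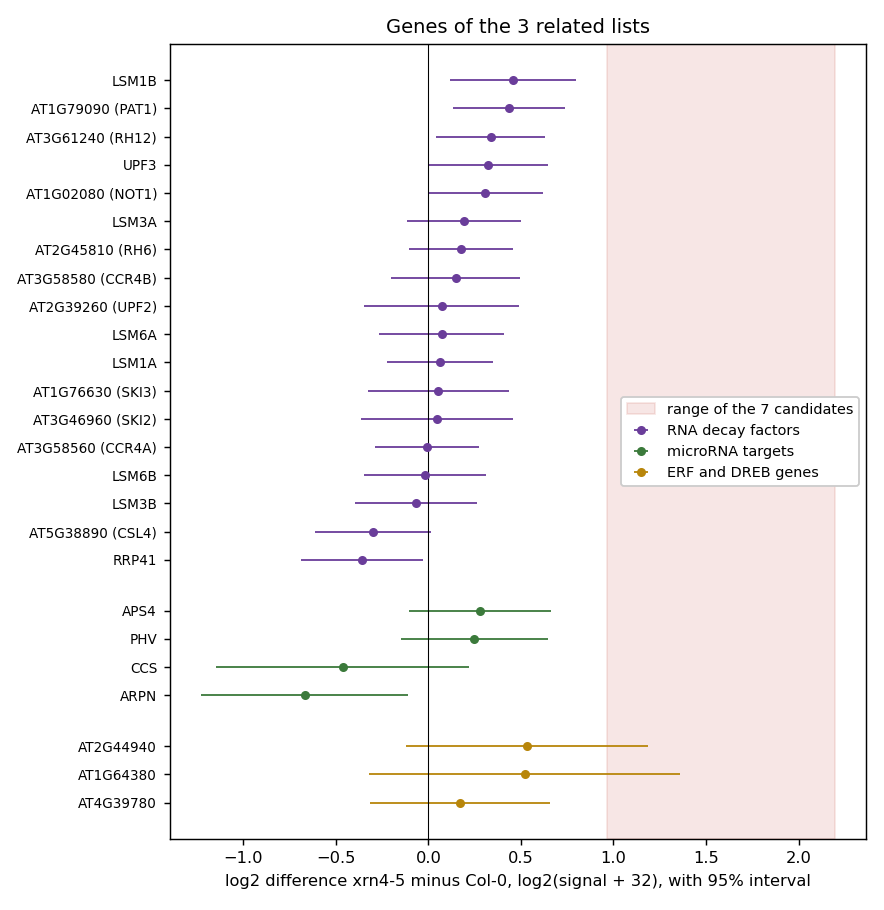
Log2 difference of xrn4-5 minus Col-0 (horizontal axis) with its 95% interval from limma for the 18 tested decay factors, the 4 microRNA targets and the 3 ERF and DREB genes. The shaded band spans the 7 candidates, from 0.96 to 2.20, which were picked on this contrast, so where the lists lie beside the band is no test. The list estimates run from -0.67 to 0.53.

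The genes next to the candidates on the chromosome were read as well, a comparison chosen after the data had been seen. Of the 12 protein-coding neighbours of the 6 named members, 3 were tested, out of 6 with a named probe set. In limma 0 of the 3 passed at an adjusted p under 0.05 (0.00733% higher and 0% lower over all tested), and 0 in the test with no shared variance, with 1 at an unadjusted p under 0.05, beside 9.33% of all tested. AT4G32030, beside AT4G32020, gave 442.5 and 333 in xrn4-5 plants, against 324 and 366.5 in Col-0, and the genotypes overlapped. AT1G68500, beside AT1G68490, gave 217 and 425 in xrn4-5 plants, against 203 and 358 in Col-0, and overlapped too. AT1G04670, beside AT1G04660, had lower signal in both xrn4-5 arrays, with 244.5 and 295 in xrn4-5 plants against 448 and 405 in Col-0 plants plants, a log2 difference of -0.61 (limma adjusted p = 0.398).

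Median signals of the arrays were 240 to 248, and the trimmed mean was 500.04 in each. Of 10 floral organ markers listed, AGL24 and SPT had a named probe set, and their summed signal was 419 and 413 in xrn4-5 plants against 370 and 438 in Col-0. Of 6 tapetum markers, 3 had one, with a sum of 7477 and 8235 in xrn4-5 plants against 9013 and 9040.0 in Col-0. Of 6 late pollen markers, 4 had one, with a sum of 1240 and 1272 in xrn4-5 plants against 1717 and 1339 in Col-0. Of 5 leaf markers, 2 had one and overlapped, and of 4 root markers none had one. None of the measured markers was at 0, and limma called 0 of the 10 tested markers at an adjusted p under 0.05, with 0 at an unadjusted p under 0.05 and 0 by the test with no shared variance. Without array 2 of Col-0, 1 late pollen marker had an unadjusted p under 0.05. The tapetum and late pollen sums were lower in both xrn4-5 arrays. Each rests mostly on its brightest gene, ATA27 for the tapetum (5235 and 5505 in xrn4-5 plants against 6481 and 5845 in Col-0 plants) and TUA1 for late pollen (795.5 and 759.5 in xrn4-5 plants against 1077 and 850.3 in Col-0 plants). AMS of the tapetum (426.7 and 521 in xrn4-5 plants against 529.1 and 526.3 in Col-0 plants) was also lower in both xrn4-5 arrays. So was ACT12 of late pollen (180.5 and 183.8 in xrn4-5 plants against 267 and 197.3 in Col-0 plants). In both lists 2 of 3 tested markers lay lower in both xrn4-5 arrays, beside 18.6% of all tested probe sets. AT5G07230, AGL65 and AGL66 overlapped between the genotypes. The part of these markers in the results was not tested.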

How the data were processed

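The authors deposited 1 linear intensity per probe set and array. GCOS is named, with no version, in the submitters' processing notes, and 15 µg of total RNA was labelled, per the labels. For each same-numbered pair the authors also deposited a log2 ratio, per the file headers xrn4-5 over Col-0, and a change p-value whose method is not given in the sources. Intensities were analysed as log2(value + 32) without further normalization. The 64 control probe sets and the 40% with the lowest mean log2 over the 4 arrays were left out. The rest (13647) were tested in R 4.3.3 with limma 3.58.1, two-sided, by lmFit with eBayes(trend=TRUE), which had 2 residual degrees of freedom and a prior of 3.73. P-values were adjusted by Benjamini-Hochberg over all of them, at 0.05. Fold changes on this scale understate dim probe sets. The code was tested on simulated data. Figures used Python 3.11.15 and matplotlib 3.10.9.

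The members and the lists were chosen with earlier results of these data known. Genes came from the platform annotation, updated to TAIR10.1 names, in which 13513 probe sets have 1 gene, 503 several and 8730 none listed. A gene with several probe sets was read from the brightest. Beside the members, the rule named up to 4 genes per list by smallest p, and the 6 nearest profiles. AT1G02080, UPF3, AT5G38890, LSM1A, the neighbours and the markers were named after their values were seen. Protein relatives, protein features and promoter motifs were planned and not analysed here, since no sequences were used. No positions are given, because the files name no genome build. Alternatives changed the pseudocount, filter, normalization, variance prior, block, test and arrays used. The arrays were not duplicates, with 47 identical values of 22810 in xrn4-5 and 46 in Col-0.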

Additional observations from a re-analysis of the deposited data

How the results depend on the processing

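The log2 difference of each of the 7 candidates stayed positive under every alternative run, and the median of the 7 lay between 1.12 and 1.29 when 1 array was left out. With a constant of 1 or of 100, quantile normalization or median centring, the differences of the 7 lay between 0.89 and 2.23. The number of probe sets called higher in xrn4-5, 1 in the report, was 0 without the filter on dim probe sets, 0 for eBayes with no trend and 0 in Welch's test. Leaving out single arrays gave 0 to 3 higher and 0 to 8 lower, under the assumption that the lone array varies like the rest. With the array number as a replicate block, 71 of the 13647 tested probe sets were called higher, the 7 candidates among them, and 60 lower. The 7 were picked on this contrast, so their count with the block tests nothing. Same-numbered arrays deviated together (correlation 0.42 over tested probe sets), while no label ties the number to a batch. Of the 6 nearest genes 5 passed with that block, which a search for the profile of the 7 favours, so nothing is read from it. With the same block, 0 of the listed genes and 0 of the 3 neighbours passed. The count between arrays 2 and 1 was 1 with no filter and 122 without trend, and leaving out an array leaves that model no residual degrees of freedom. Of the 14 pair differences of the candidates, 7 differed from the authors' deposited ratio by more than the SD between arrays. AT4G39780 ranged from -0.020 to 0.36 when an array of xrn4-5 or Col-0 was left out. The causes were not tested, except that leaving out arrays or adding probe sets changes how many enter. With 2 arrays per genotype, their number limits every value.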
